A study of Mus musculus with 2 samples.

Results

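The Nodal and activin signaling genes examined here were 9 genes taken by name from the 30774 gene identifiers of the array: Nodal, Tdgf1, Acvr2b, Lefty1, Lefty2, Cer1, Foxh1, Smad7 and Skil. All 9 were found, each under 1 identifier. They were measured in mouse embryonic stem cells (mESCs) of the B6 (C57BL/6) strain, labelled as coming from the inner cell mass of the E3.5 embryo and grown in serum medium. One condition was LIF, the cytokine that activates Stat3, and the other was LIF plus CHIR99021 (CHIR) for 12 h. CHIR blocks the kinase GSK3 and so stabilises β-catenin, the effector of Wnt signaling. Both cultures thus received serum and LIF, and no other genetic change or agent is named in the labels. Total RNA of each condition was hybridized to 1 Illumina beadchip, so each condition is 1 sample, the spread between cultures is unknown, and no difference below has a test. The labels name B6 mESCs, whereas the study's text describes 46C mESCs as its cultured line, and the labels do not settle which clone was arrayed.

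Nodal and activins are secreted ligands of the TGF-β family. They bind type II and type I serine/threonine kinase receptors, Nodal with the help of a co-receptor of the Cripto family, and the receptors phosphorylate Smad2 and Smad3. These join Smad4, enter the nucleus and act on genes together with DNA-binding partners such as Foxh1. Lefty1, Lefty2, Smad7 and Skil are known targets of the pathway that restrain it in turn, and Nodal activates its own gene. In the early mouse embryo the pathway patterns the epiblast, the primitive streak and the left-right axis, and it is active in undifferentiated ES cells.

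The upstream sequences of the ligand Nodal and of its co-receptor Tdgf1 are shown because these genes form one signaling complex but differed in detection, as described further on. Both come from RefSeq (GRCm38.p6) and cover the 250 bases before the annotated start. The Nodal sequence lies at chr10:61417722-61417971 on the plus strand and the Tdgf1 sequence at chr9:110946159-110946408 on the minus strand. Capitals mark the short Smad box CAGAC, searched on both strands.
Nodal: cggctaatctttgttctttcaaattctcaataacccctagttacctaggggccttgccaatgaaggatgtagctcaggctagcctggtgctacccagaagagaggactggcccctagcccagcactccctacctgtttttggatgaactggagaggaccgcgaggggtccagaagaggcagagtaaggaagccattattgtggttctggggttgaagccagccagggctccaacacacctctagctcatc
Tdgf1: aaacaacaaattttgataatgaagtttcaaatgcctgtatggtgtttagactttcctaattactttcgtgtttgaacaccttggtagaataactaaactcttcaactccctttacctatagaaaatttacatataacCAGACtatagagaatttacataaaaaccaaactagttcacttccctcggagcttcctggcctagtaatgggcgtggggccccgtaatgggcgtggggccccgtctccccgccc

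Windows of 300 bases, reaching 50 bases past the start, were at hand for 4 members: Nodal, Tdgf1, Cer1 and Acvr2b. CAGAC occurred in the windows of Tdgf1, Cer1 and Acvr2b, 1 time in each, and not in that of Nodal. It is common, being present in 49.6% of 32851 such windows. None of the 4 windows held the palindromic Smad element GTCTAGAC (0.213% of all windows), the Foxh1 motifs AATCCACA (0.855%) and AATACACA (0.980%), or the Tcf/Lef motif ATCAAAG (3.73%). Sequence outside the windows was not searched, so sites elsewhere in or near these genes, Nodal included, are not covered.

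A signal here is the deposited brightness of an identifier after background subtraction, in arbitrary units, so that values below 0 occur. An identifier was taken as detected where its detection p-value, the share of negative control beads at least as bright, was under 0.01. A difference was described as higher or lower by the 1.5-fold limit used in the study. Of the 9 members, 5 were detected, all of them on both arrays: Nodal, Acvr2b, Lefty1, Lefty2 and Foxh1. The other 4 (Tdgf1, Cer1, Smad7 and Skil) were detected on neither array and were given no fold change. Among the 5 detected members, 1 (Lefty2) had a signal at least 1.5-fold above that of LIF when CHIR was present, and 0 had one at least 1.5-fold below it. Of all 9615 identifiers detected on at least 1 array, 4.11% were higher by this limit and 4.02% lower. The median log2 fold change was -0.18 over the detected members and 0.00 over all detected identifiers.

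**Figure D1:**
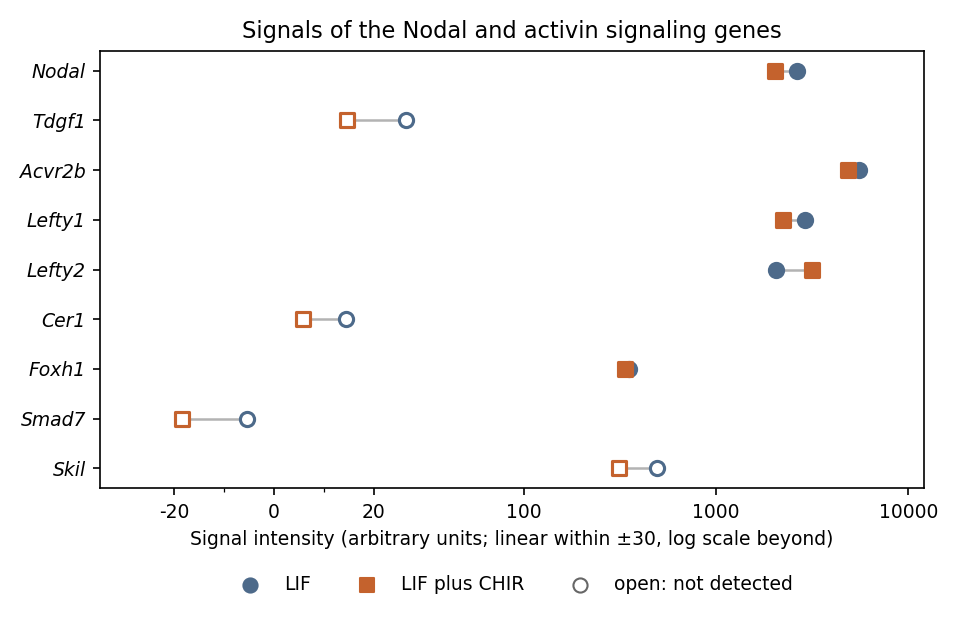
Signal intensity (arbitrary units, linear within ±30 and logarithmic beyond) of the 9 members on the LIF array (circles) and the LIF plus CHIR array (squares), 1 array each, with open symbols for genes detected on neither array. Lefty2 is the member whose LIF plus CHIR signal (3172) lies to the right of its LIF signal (2061), past the 1.5-fold limit. The other 8 lie to the left, but 4 of them were not detected and have no fold change. The detected ones among the 8 lay within the limit.

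Nodal, the ligand, had a signal of 2642 in LIF and of 2030 with CHIR added. The signal was thus 1.30-fold lower (log2 fold change -0.38), within the 1.5-fold limit. The array file lists Nodal by symbol alone, with no Entrez gene number or map position. Tdgf1 (Entrez gene 21667, chromosome 9, band 9qF3) encodes Cripto, the co-receptor through which Nodal signals. Its signal was 26.6 in LIF, with a detection p-value of 0.0737, and 14.6 in LIF plus CHIR, with 0.158. Both lay below the dimmest detected identifier with 1 probe (51.9 on the LIF array, 47.1 on the other), so Tdgf1 RNA was not measurable by this probe. Acvr2b (Entrez gene 11481, band 9qF3) encodes a type II receptor for activins and Nodal. Its signal of 5517 without CHIR and 4862 with CHIR was 1.13-fold lower (log2 fold change -0.18).

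Lefty1 and Lefty2, both secreted inhibitors of Nodal and close relatives, had signals that differed in opposite directions. Lefty1 stayed within the 1.5-fold limit, and Lefty2 passed it. The array annotation places both on chromosome 1 in band 1qH4. Lefty1 (Entrez gene 13590) had a signal of 2896 in LIF and of 2220 with CHIR, 1.30-fold lower (log2 fold change -0.38). Lefty2 (Entrez gene 320202) had 2061 in LIF and 3172 with CHIR, 1.54-fold higher (log2 fold change 0.62). The log2 fold changes of the pair were 1.01 apart, whereas those of Lefty1 and Nodal were 0.0035 apart. With 1 array per condition, neither gap could be tested. Lefty2 passed the limit by a narrow margin, since 1.5-fold corresponds to a log2 fold change of 0.58. Probes for such similar genes can share target RNA, and the probe sequences were not used here, so how far each signal reads its own gene was not tested.

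Bright signals varied less between the arrays than dim ones. Among the 3269 detected identifiers with a brighter signal of 1000 or more, the class of Lefty2, Lefty1, Nodal and Acvr2b, 95% of log2 fold changes lay between -0.42 and 0.42. In this class 1.19% of identifiers passed the limit as higher and 1.01% as lower, and 37 of them (1.13%) had a log2 fold change as high as that of Lefty2 or higher. Lefty1 and Nodal lay inside the 95% range, with 91 (2.78%) and 95 (2.91%) of these identifiers as low or lower. For Acvr2b this number was 389 (11.9%). These shares describe the spread over genes on a single pair of arrays and include any real change of other genes.

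**Figure D2:**
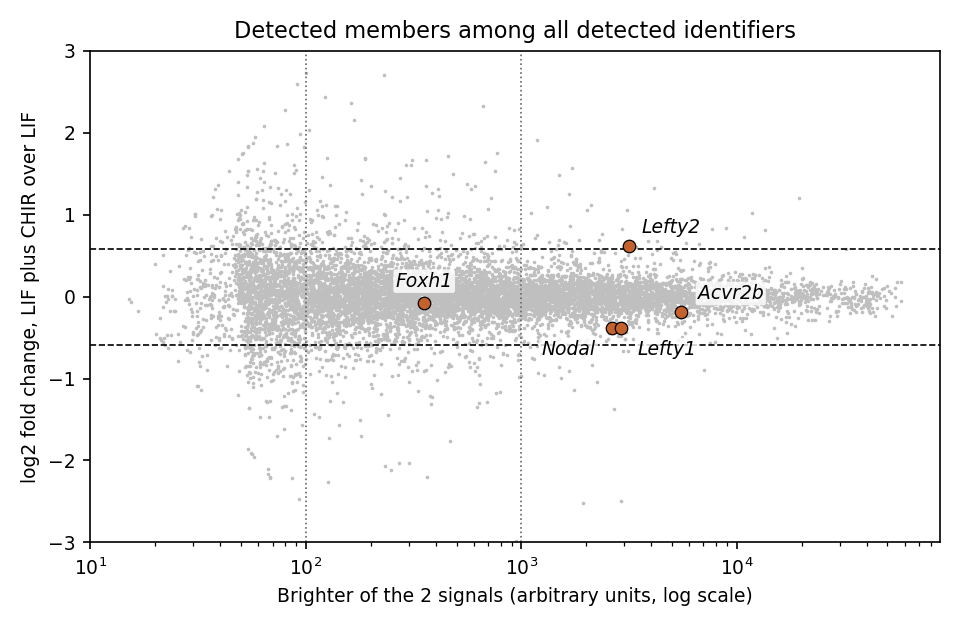
log2 fold change of LIF plus CHIR over LIF against the brighter of the signals (log scale) for all detected identifiers (grey) and the 5 detected members (orange), with dashed lines at 1.5-fold and dotted lines at signals of 100 and 1000. Lefty2 sits at 0.62, just above the upper line, Nodal and Lefty1 share a place at -0.38, and 7 identifiers lie outside the vertical axis.

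Cer1 (Entrez gene 12622, chromosome 4, band 4qC3) encodes Cerberus, a secreted antagonist of Nodal found in the anterior visceral endoderm. It was not detected, with signals of 14.4 without and 5.82 with CHIR and detection p-values of 0.0794 and 0.284. Of 8 primitive endoderm genes, Sox7 and Col4a1 were detected and Gata4, Gata6, Sox17, Foxa2, Pdgfra and Dab2 were not. Over the whole array, 9615 of 30774 identifiers were detected on at least 1 array, so this share of endoderm genes is not unusual.

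Foxh1 (Entrez gene 14106, chromosome 15, band 15qD3), the forkhead factor that brings Smad2 and Smad3 to DNA, had a signal of 354.0 in LIF and of 334.3 with CHIR. It was 1.06-fold lower (log2 fold change -0.08), and this was the smallest difference among the 5 detected members. Of the detected identifiers in its class of brightness (100 to under 1000), 36.5% had a log2 fold change as low or lower. The Smads it works with differed little as well, with a log2 fold change of -0.20 for Smad2 and -0.07 for Smad3.

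Smad7 (Entrez gene 17131, chromosome 18, band 18qE3), an inhibitory Smad that blocks the type I receptor, had signals below 0 on both arrays, -5.44 without and -18.5 with CHIR. Its detection p-values were 0.527 and 0.974, in the middle and at the low end of the negative controls. Skil (Entrez gene 20482, chromosome 3, band 3qA3) encodes SnoN, a nuclear repressor of Smad-driven transcription. Its signal was 494.4 in LIF and 311.7 with CHIR, a plain ratio of 0.630 (log2 ratio -0.67), yet the detection p-values were 0.199 and 0.503. Skil is one of 7419 identifiers whose p-values appear to combine several probes. Of those with signals of at least 300 on both arrays, 635 of 1364 were undetected, against 0 of 4588 with 1 probe. The 0 follows by definition, since with 1 probe the p-value ranks the signal itself among the negative controls. The lower Skil signal therefore stands without a detection call. When detection was set by signal instead, Skil was counted as lower by more than 1.5-fold, which made 1 lower member instead of 0. Of all identifiers detected that way, 2.88% were lower.

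To place the members, 77 genes of the pathway were listed by role, of which 73 were matched to the array and 32 detected on at least 1 array. Among these 32 genes, members included, 5 passed the limit as higher with CHIR (15.6%), 1 passed it as lower (3.12%), and 26 lay within the limit. The median log2 fold change of the 32 was -0.06, beside 0.00 over all detected identifiers. Of the latter, 4.11% were higher and 4.02% lower by the limit. The pathway genes higher by the limit were Lefty2, Fst, Tgfb1, Dact2 and Gsc, and the lower one was Tgif2. Without Gsc, which does not pass against the dimmest detected identifier with 1 probe, 4 were higher. Tgfb1, Fst, Dact2 and Tgif2 belong to the class with a brighter signal of 100 to under 1000. In that class 3.67% of detected identifiers were higher and the same share, 3.67%, was lower. The list was drawn up with earlier results of these data known. These shares therefore cannot show whether pathway genes changed more often than others.

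Among the genes listed as secreted antagonists, 5 of 10 were detected. Of these, 2 were at least 1.5-fold higher, beside 4.11% of all detected identifiers. Fst, which encodes follistatin, the binding protein that neutralizes activins, had a signal of 113.4 in LIF and of 359.0 with CHIR, 3.17-fold higher (log2 fold change 1.66). This was the largest fold change among pathway genes detected on both arrays. Fstl1, a relative of follistatin, was 1.42-fold higher (1052 and 1490), within the limit. Nomo1, placed in this list as a modulator of Nodal signaling and not as a secreted protein, had its brightest signal, with 6364 and 7347 (log2 fold change 0.21). Lefty1 was thus the one detected gene of the list with a lower signal in LIF plus CHIR, a difference within the limit.

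Among the ligands, 4 of 11 matched genes were detected. Gdf1, a partner ligand of Nodal, had signals of 484.9 without and 370.1 with CHIR (log2 fold change -0.39), within the limit. Gdf3, a related ligand expressed in pluripotent cells, had 5716 and 5976 (log2 fold change 0.06). Tgfb1 had 113.0 and 170.7, 1.51-fold higher (log2 fold change 0.60), a value that fell below the limit when 16 was added to both signals (0.53). Inhba, which encodes the subunit of activin A, was not detected, with signals of -6.09 and 7.76. Of 9 receptor and co-receptor genes, 1 was detected, Acvr2b, and 5 of the others (Tdgf1, Cfc1, Acvr1c, Acvr2a and Tgfbr2) had signals below 30 on both arrays. The remaining 3 appear to have several probes, as Skil does. Tgfbr1, a type I receptor for TGF-β, had signals of 436.8 and 474.4 but combined p-values of 0.254 and 0.151, Acvr1b, a type I receptor for activins and Nodal, had 41.5 and 45.1, and Tgfbr3 had 29.9 and 64.4. Of the 3 convertases that cleave the ligand precursors, 0 were detected, and Pcsk6, the brightest, had signals of 529.8 and 587.0 with combined p-values of 0.0134 and 0.0266.

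Of 7 detected intracellular inhibitors, 1 was higher and 1 lower by the limit, beside 4.11% and 4.02% of all detected identifiers. Tgif2, a homeobox corepressor of Smads, had a signal of 195.6 in LIF and of 118.7 with CHIR, 1.65-fold lower (log2 fold change -0.72). Dact2, which promotes the breakdown of Nodal receptors, had 152.9 and 251.2, 1.64-fold higher (log2 fold change 0.72). Dact2 appears to have several probes, and its combined p-values were 0.00338 in LIF and 0.00906 with CHIR, the latter just under 0.01. Ppm1a, a phosphatase that acts on Smad2 and Smad3, was bright, with 6901 and 6229 (log2 fold change -0.15). The 8 detected Smads and Smad partners all lay within the limit, from -0.46 to 0.51. Gtf2i, the brightest identifier of that role in LIF, had nearly equal signals of 5095 and 5111 but was not detected by its combined p-values of 0.0727 and 0.1496.

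**Figure D3:**
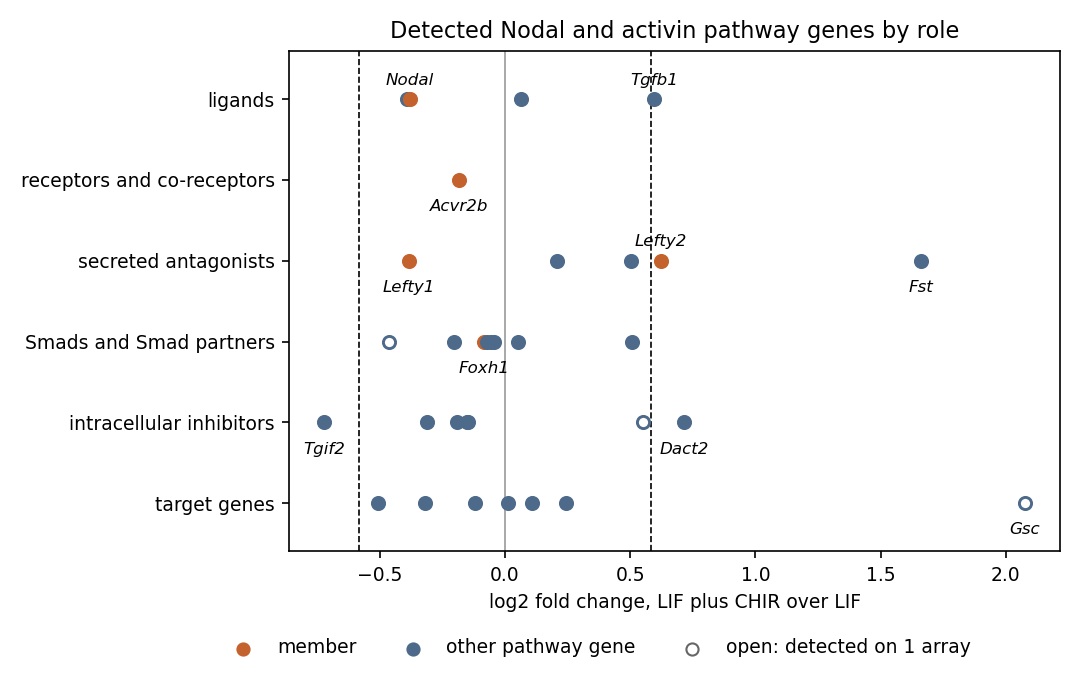
log2 fold change of LIF plus CHIR over LIF for the 32 detected pathway genes by role, with members in orange, other genes in blue, open symbols for genes detected on 1 array and dashed lines at 1.5-fold. The genes right of the upper limit are Tgfb1, Lefty2, Fst, Dact2 and Gsc (plotted against the minimum of 15.1), and Tgif2 is the one left of the lower limit.

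Among genes listed as pathway targets, 7 of 16 were detected. Dnmt3b, a DNA methyltransferase of the epiblast, had the brightest signal in LIF, with 15440 and 10870 in LIF plus CHIR, 1.42-fold lower (log2 fold change -0.51). Gsc, a homeobox gene of the anterior primitive streak, was detected with CHIR alone, with signals of 12.5 without and 63.7 with it. Gsc appears to have 1 probe, and against the dimmest detected identifier of that kind in LIF (51.9) its log2 fold change was at least 0.29, which is under the limit. It passed the limit because the minimum over all identifiers (15.1) is lower, so its count as higher is uncertain. Of 8 primitive streak markers, T, Gsc and Evx1 were detected. T and Evx1 were higher by the limit, beside 4.11% of all detected identifiers, and Gsc was so with the lower minimum only. Of the undetected ones, Wnt3 (15.0 and 11.8) and Fgf8 (11.1 and 10.3) had slightly lower signals with CHIR, and Mesp1 was below 0 on both arrays. The summed signal of the 8 was 143.7 without and 692.7 with CHIR, mostly through T, which went from 8.05, not detected, to 394.5. Mixl1 and Eomes, streak genes that are also Nodal targets, were not detected, with Mixl1 below 0 on both arrays. The part of streak-like cells in the signals of Lefty2, Fst and Gsc was not tested, and fewer cells of a type cannot be told apart from less RNA per cell in these bulk samples.

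Markers of the labelled cell type and of the treatment were checked on both arrays. Of 10 mESC markers, 9 were detected on both arrays, Sox2 being the exception by its combined p-value, and 0 of 9 fibroblast genes were detected. Thy1, one of the latter, had signals of 222.3 and 225.3 and was likewise undetected by combined p-values (0.354 and 0.302), while the collagen genes Col1a1 and Col3a1 were below 0 on both arrays. Tbx3 was the 1 mESC marker past the limit, 2.34-fold higher with CHIR, beside 4.11% of all detected identifiers. Of the 9 detected mESC markers, 6 had a log2 fold change over 0 and 3 had one under 0, the lowest being -0.49 for Utf1. Of 7 trophoblast genes 3 were detected. Cdx2 had 23.6, not detected, and 93.5 with CHIR. Krt7 (57.3 and 54.5) and Krt18 (105.2 and 87.3) were slightly lower with CHIR, within the limit. Of 6 neural genes 1 was detected, Nes, with 27.7, not detected, and 44.8. Axin2, a feedback target of Wnt/β-catenin signaling, was 3.75-fold higher with CHIR, from 314.1 to 1178. Sp5 went from 48.8, not detected, to 809.5. Of 8 Wnt-response genes, 5 were detected. Of these, 4 (Axin2, Sp5, Cdx1 and Tcf7) passed the limit as higher, beside 4.11% of all detected identifiers. Tcf7, which appears to have several probes, was detected with CHIR alone. Both of its signals lay below the dimmest detected identifier with 1 probe (51.9 in LIF, 47.1 with CHIR). Against those values Tcf7 does not pass, so its count as higher is uncertain. Notum had nearly equal signals of 580.1 and 589.7, and Lef1, Nkd1 and Lgr5 were not detected. The arrays had nearly equal signal distributions, with medians of 10.5 in LIF and 10.4 in LIF plus CHIR.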

How the data were processed

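The authors deposited signal intensities of Illumina mouse beadchips, with 1 value per gene identifier and array, already background-subtracted and with near-equal distributions, and a detection p-value for each. Software, normalization and genome build are not given in the sources used here. The longer table was used, and the shorter table gave identical values for its 11702 identifiers. Identifiers whose detection p-values were multiples of 1/936 on both arrays (23355) were treated as having 1 probe. Signals with CHIR were divided by those in LIF and put on the log2 scale (Python 3.11.15; numpy 2.4.6; pandas 2.3.3) wherever either array had a detection p-value below 0.01 (9021 identifiers in LIF, 9174 with CHIR), with signals raised to the lowest detected signal of the array (15.1 and 14.8). The fold calculation was checked on simulated arrays in which every identifier was detected. That check did not cover the detection rule, the minimum signal or changes near 1.5-fold. List genes were matched by Entrez gene number through RefSeq (104 genes), by symbol (18) or by older symbol (1), and 4 were not matched. Named were all members, pathway genes past 1.5-fold and the brightest of each role; a few others were named after their values were seen. The members and lists were chosen with earlier results of these data known. As each condition had 1 array, differences were not tested, and the number of arrays limits the precision. Alternatives included normexp correction (limma 3.58.1, R 4.3.3). Figures used matplotlib 3.10.9.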

Additional observations from a re-analysis of the deposited data

How the results depend on the processing

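No paired analysis was possible because LIF and LIF plus CHIR each had a single array, which leaves nothing to pair or test. Quantile normalization, scaling to equal medians, normexp correction fitted on identifiers with 1 probe, a looser detection p-value (0.05), the requirement of detection on each array, a higher minimum signal, 16 added to both signals and the shorter table left the members within narrow ranges of log2 fold change: 0.62 for Lefty2 throughout, -0.39 to -0.38 for Lefty1, -0.38 to -0.37 for Nodal, -0.19 to -0.18 for Acvr2b and -0.09 to -0.08 for Foxh1. For these members, well above either minimum, the detection rules, the higher minimum and the shorter table could not change the value. The normalizations acted on arrays with near-equal distributions, so the narrow ranges do not measure how repeatable the values are. At a limit of 2-fold, 0 members were higher, beside 1.34% of all detected identifiers, since Lefty2 was 1.54-fold higher. With detection by signal, chosen after seeing the data, 1 of 6 members was lower, Skil, with a log2 fold change of -0.67. Of all identifiers detected that way, 2.88% were lower. Of 32 pathway genes, 5 were higher and 1 lower, beside 4.11% and 4.02% of all detected identifiers. At a limit of 2-fold 2 were higher (Fst and Gsc) and 0 lower, beside 1.34% and 0.884% of all detected identifiers. At a detection p-value under 0.05, 2 of 39 were lower, Fgf5 being added, beside 5.845% of all identifiers so detected. With detection by signal 2 of 40 were lower, Skil being added, beside 2.88% of all. Tgfb1 went under 1.5-fold with normexp correction and with 16 added (0.53 each), and Gsc went to 0.29 with the higher minimum signal and with detection by signal. Depth on these arrays is signal over background: members below 51.9 in LIF, namely Tdgf1, Cer1 and Smad7, had no measurable difference.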
